A study of Mus musculus with 2 samples.

Results

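The cells described here are the macrophages of 2 mouse small cell lung tumors. They were chosen by measured values: a barcode was taken as a macrophage when more than 200 genes were detected in it, when it held at least 5 UMIs (unique molecular identifiers, each standing for 1 captured RNA molecule) summed over Lyz2, C1qa, C1qb, C1qc, Tyrobp and Fcer1g, and when it held fewer than 10 UMIs of the club cell gene Scgb1a1. This gave 139 macrophages among the 4514 barcodes of tumor 1 and 104 among the 3816 of tumor 2, or 243 of 8330 in all. The droplet-based single-cell RNA-seq data came from 1 lung tumor of each of 2 mice, with 1 library per tumor. Both mice were read from their labels as the same, although 1 genotype label ended in further characters that could not be interpreted: the TKO genotype Rb-/-; Trp53-/-; Rbl2-/- with a membrane-Tomato or membrane-GFP reporter at Rosa26, on a background mixed from 129/SvOla, 129/SVJ and C57BL/6. Tumors were started with Adeno-CMV-Cre, an adenovirus whose viral promoter is not restricted to a cell type, and were taken 7 months later at an age of 8 to 9 months. The tissue was digested to single cells, red cells were lysed and live cells were sorted by flow cytometry with no marker for macrophages. The deletions are expected in cells that received Cre and in their progeny, so a macrophage need not carry them. With a single library per tumor no test between tumors was possible, and mouse, tumor and library cannot be told apart in any difference between them.

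Macrophages are the resident phagocytes of tissues. They take up dying cells, debris and microbes, break them down in lysosomes and present fragments of protein to T cells on MHC class II. In the lung, alveolar macrophages live in the airspaces and clear surfactant, interstitial macrophages lie within the tissue, and monocytes from the blood can give rise to both, also inside tumors. Of the 6 genes used to choose the cells, Lyz2 encodes lysozyme, C1qa, C1qb and C1qc encode the chains of C1q, which starts the classical complement pathway, and Tyrobp and Fcer1g encode membrane adaptors that pass on the signals of many activating receptors.

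The macrophages made up 3.09% of the barcodes with more than 200 genes in tumor 1 (95% Clopper-Pearson interval 2.61 to 3.64%, 139 of 4496) and 2.73% in tumor 2 (2.24 to 3.30%, 104 of 3811). All intervals given here cover counting error only. Macrophages of tumor 1 held 350 to 3698 UMIs (median 967) and a median of 550 genes, those of tumor 2 held 645 to 4237 UMIs (median 1379.5) and a median of 680.5 genes, and the sums over macrophages on which the levels below rest were 152717 and 166454 UMIs. The other barcodes, which served as background, numbered 4357 and 3707 with medians of 1030 and 1882 UMIs. The 2 libraries shared 22 barcode sequences, and 0 of the macrophages were among them. Mitochondria-encoded genes took 0.494% and 0.710% of macrophage UMIs in tumors 1 and 2, against 0.571% and 0.961% in the other barcodes.

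The 6 choosing genes marked out a small set of cells with a wide range of UMIs, given here as a description. Macrophages held 5 to 261 UMIs of them in tumor 1 (median 31) and 5 to 301 in tumor 2 (median 52.5), while 4252 and 3616 of the other barcodes held 0. Just inside the threshold, 8 and 3 macrophages held 5 to 7 such UMIs, with medians of 667 and 801 UMIs in all. Just outside it, 6 and 5 barcodes held 3 or 4, with medians of 1065.5 and 1220 UMIs in all. The 3 C1q genes were the uneven ones. Lyz2 was seen in 135 of 139 and 98 of 104 macrophages, whereas 51 of 139 macrophages of tumor 1 (36.7%) and 15 of 104 of tumor 2 (14.4%) held no C1q UMI at all. The limit on Scgb1a1 left out 0 barcodes in tumor 1 and 1 in tumor 2.

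**Figure D1:**
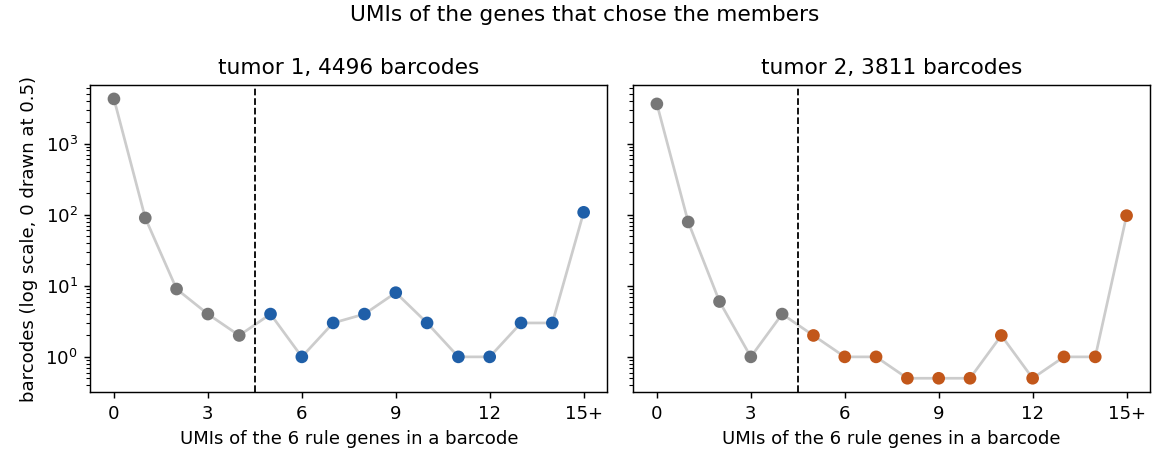
Number of barcodes with more than 200 genes (vertical axis, log scale, 0 drawn at 0.5) by the UMIs of the 6 choosing genes that they held (horizontal axis, 15 and more pooled in the last point) in each tumor, with the limit of 5 UMIs as a dashed line. Most barcodes held 0 such UMIs (4252 and 3616), few stood next to the limit, and most macrophages lie in the last point.

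Genes that were not used to choose the cells gave the same label. Of a list of 25 general macrophage and leukocyte genes, each was detected in the macrophages of both tumors. Levels are given as CPM (counts per 1000000) of UMIs summed over the cells of a group. Ctss, encoding the lysosomal protease cathepsin S, stood at 6692 CPM in macrophages against 14.1 in the other barcodes of tumor 1, and at 5281 against 6.16 in tumor 2. It was thus 476 and 857 times higher in macrophages. Cd68, a lysosomal membrane protein of phagocytes, stood at 838 against 3.32 CPM and at 1117 against 1.85 CPM. Spi1, encoding the transcription factor PU.1 that myeloid cells depend on, stood at 498 against 1.17 CPM and at 559 against 2.09 CPM. Csf1r, the receptor for the growth factor that macrophages need to survive, had 36 and 40 UMIs in macrophages and 0 in the other barcodes of both tumors. Against a floor of 3 UMIs in the other barcodes, Csf1r was at least 403 and at least 650.0 times higher in macrophages. Adgre1 (F4/80), Itgam, Itgax and Mertk, the last a receptor for dying cells, also had UMIs in macrophages (15, 7, 19 and 9 in tumor 1; 40, 12, 22 and 6 in tumor 2) and 0 in all other barcodes.

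Across all genes the macrophages stood far from the rest of each tumor. A gene was counted when its mean over the groups compared was at least 100 CPM, and it was called when it was at least 4-fold higher or lower, with no test. In tumor 1, 185 of 1730 genes (10.7%) were higher in macrophages and 184 (10.6%) were lower, and in tumor 2, 249 of 1634 (15.2%) were higher and 155 (9.49%) lower. With TMM factors the tumor 1 counts became 195 and 129, and with scaling that left out mitochondria-encoded and ribosomal protein genes the tumor 2 counts became 267 and 264. Of the 1361 genes counted in both tumors, 157 were higher in tumor 1, 210 in tumor 2 and 148 in both. All of the general macrophage genes that were counted, 18 in tumor 1 and 17 in tumor 2, were called higher, where 10.7% and 15.2% of all counted genes were. A gene nearly silent outside macrophages is counted only if it is high in them, so such counts follow partly from the limit of 100 CPM. The median log2 ratio of the list was 6.91 in tumor 1 and 8.06 in tumor 2, against −0.33 and −0.52 over all counted genes.

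**Figure D2:**
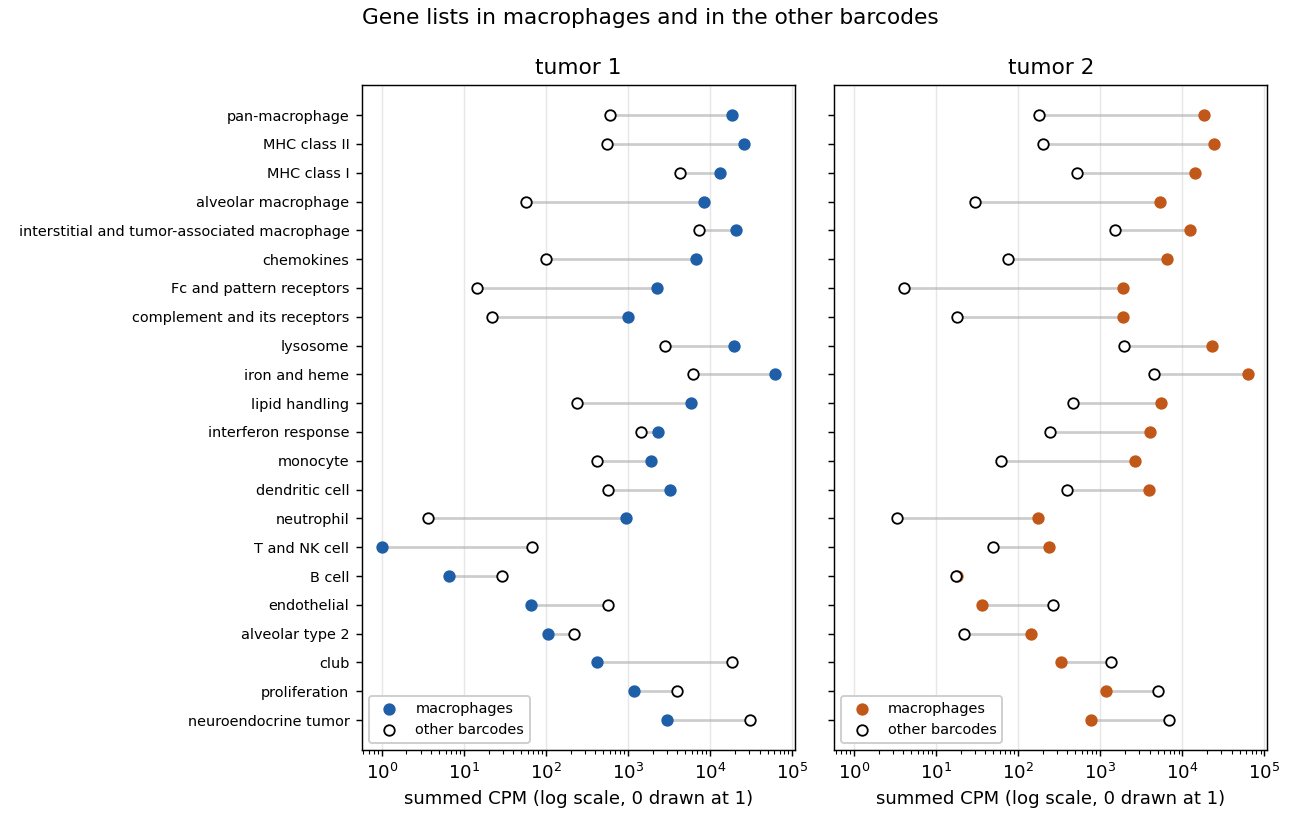
Summed level of each gene list (vertical axis) in CPM (horizontal axis, log scale, 0 drawn at 1) in macrophages (filled points) and in the other barcodes (open points) of each tumor. The general macrophage, MHC class II, alveolar, chemokine and receptor lists lie far to the right in macrophages, as at 25505 against 562 CPM for MHC class II in tumor 1, and the neuroendocrine list lies to the left at 2947 against 30803 CPM in tumor 1 and 769 against 6869 CPM in tumor 2.

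The 15 genes with the largest ratios were found by a rule that took the smaller of the lower interval bounds of the 2 tumors among genes of at least 200 CPM in macrophages of both. They were Ccl6, Chil3, Apoc4, Ms4a7, Mpeg1, Saa3, Ctss, Ccl9, Clec4n, Ear2, Csf1r, Trem2, Igf1, Fcgr3 and Wfdc17. Saa3 reached 200 CPM only through the few macrophages described below as the Alox15 group, and stood at 99.3 and 83.1 CPM in the others. Ccl6, a chemokine of myeloid cells, stood at 3981 CPM in macrophages and 1.37 in the other barcodes of tumor 1, and at 3004 and 0.616 in tumor 2. The log2 ratios were 11.51 (10.46 to 12.83) and 12.25 (11.02 to 13.88). Chil3, the chitinase-like lectin Ym1 made in bulk by alveolar macrophages, stood at 4512 against 2.15 CPM and at 1256 against 0.616 CPM, with log2 ratios of 11.04 and 10.99. Apoc4, an apolipoprotein encoded beside Apoe, had 112 UMIs in macrophages and 1 in the other barcodes of tumor 1, and 104 and 1 in tumor 2. With so few UMIs outside, its log2 ratios carried wide intervals, 11.88 (9.37 to 17.19) and 12.31 (9.80 to 17.63). These 3 genes are shown by their promoters because they led the ranking and were almost silent in the other barcodes.

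The promoters of Ccl6 (chr11:83593038-83593337, minus strand), Chil3 (chr3:106167515-106167814, minus strand) and Apoc4 (chr7:19681411-19681710, minus strand) are given from RefSeq on GRCm38.p6, 5′ to 3′, from 250 bases before the annotated start to 50 bases after it, so that the last 50 bases are transcribed. Capitals mark AGGAAG or its reverse complement CTTCCT, letters from the middle of the consensus site of PU.1, the factor encoded by Spi1.
Ccl6: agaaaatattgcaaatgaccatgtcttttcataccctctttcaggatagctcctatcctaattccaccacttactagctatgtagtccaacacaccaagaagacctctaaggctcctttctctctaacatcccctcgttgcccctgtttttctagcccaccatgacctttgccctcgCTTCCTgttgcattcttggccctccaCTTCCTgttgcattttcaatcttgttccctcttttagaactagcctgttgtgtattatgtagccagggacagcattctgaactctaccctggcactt
Chil3: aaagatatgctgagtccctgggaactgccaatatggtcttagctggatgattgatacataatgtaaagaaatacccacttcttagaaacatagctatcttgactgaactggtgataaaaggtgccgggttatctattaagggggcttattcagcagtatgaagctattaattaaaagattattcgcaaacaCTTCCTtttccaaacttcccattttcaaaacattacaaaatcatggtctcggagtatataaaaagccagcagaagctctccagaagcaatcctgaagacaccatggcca
Apoc4: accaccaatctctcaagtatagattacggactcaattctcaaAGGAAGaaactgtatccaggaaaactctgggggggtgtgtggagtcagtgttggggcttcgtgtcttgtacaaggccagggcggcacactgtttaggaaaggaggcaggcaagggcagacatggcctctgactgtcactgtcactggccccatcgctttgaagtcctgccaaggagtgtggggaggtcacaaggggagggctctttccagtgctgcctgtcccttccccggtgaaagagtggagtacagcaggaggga

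In the Ccl6 promoter the letters occurred at 73 and 47 bases before the start, inside a stretch of 14 letters, CTTCCTGTTGCATT, that was present 2 times. In the Chil3 promoter they lay 59 bases before the start and in that of Apoc4 208 bases before it. AGGAAG, searched on both strands, was chosen after a first search for GAGGAA and its reverse complement, which overlaps it by 5 letters. GAGGAA was in 0 of the 3 printed promoters, in 6 of the 13 ranked genes with a promoter in the table and in 28.3% of 32851 promoters of this length. AGGAAG was in 3 of 3, in 9 of 13 and in 35.4%. Such matches describe the letters and were not tested as binding sites.

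The other ranked genes covered several tasks of a phagocyte. Mpeg1, encoding the pore-forming perforin-2, stood at 465 and 427 CPM in macrophages of tumors 1 and 2, and Clec4n (dectin-2), a receptor for fungal sugars, at 714 and 493 CPM. Trem2, a lipid-sensing receptor that signals through Tyrobp, stood at 714 and 625 CPM, and Fcgr3, an IgG receptor that signals through Fcer1g, at 609 and 1021 CPM. Igf1, a growth factor secreted by tissue macrophages, was nearly the same in both at 340.5 and 342 CPM. Each of these 5 genes was below 1 CPM in the other barcodes of both tumors. Ear2 and Chil3 have close copies in the genome (Ear1 and Chil4), and reads that match more than 1 copy may be missing from the counts.

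MHC class II genes were abundant in the macrophages and low in the other barcodes. The list of 10 genes held 25505 CPM in macrophages and 562 in the other barcodes of tumor 1, and 24451 and 199 CPM in tumor 2. All 6 genes of the list that were counted were called higher in each tumor, against 10.7% and 15.2% of all counted genes, and the list's median log2 ratio was 5.05 and 6.72. Cd74, the invariant chain that guards the groove of MHC class II until a peptide is loaded, stood at 9069 against 242 CPM and at 8693 against 76.5 CPM. H2-Ab1, a chain of the presenting molecule itself, stood at 6548 against 95.8 CPM and at 6464 against 37.5 CPM. The peptide-loading genes H2-DMa and H2-DMb1 were lower in level but also called, while H2-DMb2, H2-Oa, H2-Ob and the regulator Ciita had 0 to 8 UMIs in the macrophages of either tumor and were not counted. With each barcode thinned to 500 UMIs, 83.0% of macrophages of tumor 1 (74.8 to 89.5%) and 80.8% of tumor 2 (71.9 to 87.8%) held an MHC class II UMI, against 6.77% and 1.97% of the other barcodes. Thinning left out 27 macrophages of tumor 1 and 0 of tumor 2, and without it the shares were 88.5% and 92.3%.

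MHC class I separated macrophages from the other cells in tumor 2 much more than in tumor 1. The levels in macrophages were close, and those in the other barcodes were not. The 11 class I genes held 13083 CPM in macrophages of tumor 1 and 14412 in those of tumor 2, but 4248 and 524 CPM in the other barcodes. H2-D1, a classical class I heavy chain, stood at 4918 and 5972 CPM in macrophages and at 2391 and 268 in the others. In tumor 1, 1 of 7 counted class I genes (B2m, the shared light chain) was called higher in macrophages, a share near the 10.7% of all counted genes, and in tumor 2 it was 4 of 4, against 15.2%. Of the interferon response list, 0 of 3 counted genes were called higher in tumor 1 and 4 of 4 in tumor 2, against the same 10.7% and 15.2%, and so few counted genes say little in tumor 1. Its sum in macrophages was 2292 and 4007 CPM, and in the others it was 1448 and 246 CPM.

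Iron storage took a large share of the macrophage RNA. The 9 iron and heme genes held 62488 and 62324 CPM, or about the same in both tumors, against 6109 and 4524 in the other barcodes. Nearly all of it was ferritin. Fth1, the heavy chain, stood at 33212 and 26302 CPM in macrophages and at 1811 and 978 in the others. Ftl1, the light chain, stood at 28248 and 34712 against 4051 and 3425 CPM. Hmox1, the enzyme that opens heme, was lower at 249 and 384 CPM but 18.5 and 38.0 times the level of the other barcodes. Tfrc, which imports iron from transferrin, did not share this direction, with 1 and 2 UMIs in macrophages.

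Lysosomal genes were higher in macrophages with graded ratios, and most were also well detected in the other barcodes. Of 17 counted genes, 13 were called higher in tumor 1 and 15 in tumor 2, against 10.7% and 15.2% of all counted genes, with list medians of 2.72 and 4.07 on the log2 scale. Within this list, which does not hold Ctss, Ctsc had the largest ratio of the abundant genes. Ctsc, the protease that activates granule enzymes, stood at 1290.0 against 15.8 CPM and 1339.7 against 4.68 CPM. Ctsb, another cathepsin and the most abundant of the list, stood at 2855 against 203 CPM and 4680.0 against 41.0 CPM. Lamp1, a structural membrane protein, was 3.23 and 3.03 times higher and was not called. Among lipid genes, Lgals3, the galectin that gathers at damaged membranes, stood at 3844 and 3707 CPM, and Plin2, the coat of lipid droplets, at 884 and 727 CPM, both called higher in each tumor. Fabp5, a fatty acid carrier, was called in tumor 1 and not in tumor 2, at 406 and 613 CPM in macrophages and 52.3 and 373 CPM in the other barcodes.

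The secreted signals included chemokines and cytokines. The chemokine list held 6810 and 6578 CPM in macrophages, with 5 of 6 and 8 of 8 counted genes called higher, against 10.7% and 15.2% of all counted genes. Beside Ccl6, it was led by Cxcl2, which draws neutrophils, at 1002 and 1249.6 CPM, and Ccl9 at 537 and 541 CPM. In tumor 2, 162 of the Cxcl2 UMIs lay in 15 macrophages described below as the Alox15 group and 46 in the others, and without that group Cxcl2 stood at 980.1 CPM in tumor 1 and 347 in tumor 2. Ccl5 was the counted gene that was not called in tumor 1, at 164 CPM in macrophages and 83.5 in the others, and 17 of its 25 UMIs lay in 1 macrophage. The list of inflammatory cytokines and NF-kB targets held 1604 and 1550 CPM in macrophages, and 296 and 57.5 CPM in the other barcodes. Without the Alox15 group the list held 1596 and 1141 CPM in macrophages. Its calls were 2 of 3 and 2 of 2 counted genes, against the same 10.7% and 15.2%, and so few counted genes say little. Among cytokines, Il1b stood at 249 and 144 CPM and Tgfb1 at 340.5 and 384 CPM, whereas Tnf had 7 and 1 UMIs, Il6 had 0 and 4 and Il10 had 0 and 2.

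Receptors had low counts, and those of the Fc and pattern list were nearly silent elsewhere. All 3 counted Fc and pattern receptors were called higher in each tumor, against 10.7% and 15.2% of all counted genes, but they were counted through their level in macrophages, so the call was fixed by the limit of 100 CPM. The list summed to 2266 and 1874 CPM against 14.4 and 4.07 in the other barcodes. Fcgr2b, the inhibitory IgG receptor, stood at 354 and 276 CPM, Sirpa, which reads the signal of Cd47 on other cells, at 249 and 222, and Axl, a receptor for dying cells, at 249 and 168. The list of growth factor receptors held 871 and 661 CPM in macrophages and 94.3 and 51.8 CPM in the other barcodes. The receptor genes of GM-CSF, on which alveolar macrophages depend, had 19 and 23 UMIs (Csf2ra) and 24 and 14 UMIs (Csf2rb). Of the ligands that restrain T cells, Cd274 (PD-L1) had 7 and 3 UMIs, Pdcd1lg2 had 2 and 0, and Lgals9 stood at 183 and 126 CPM. The leading gene of that list was Lilrb4a, an inhibitory receptor of myeloid cells, at 334 and 318 CPM.

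Markers of alveolar macrophages were present in most of the cells. The list held 8329 CPM in macrophages of tumor 1 against 57.4 in the other barcodes, and 5425 against 30.0 in tumor 2, and all 6 and 8 of its counted genes were called higher, against 10.7% and 15.2% of all counted genes. These genes too were counted only through their level in macrophages. Ctsk, a collagen-degrading cathepsin, stood at 1886 and 1394 CPM, Atp6v0d2, a subunit of the acidifying pump, at 223 and 378 CPM, and Fabp4, a lipid carrier under control of PPAR-gamma, at 288 and 505 CPM. Pparg itself, the factor on which alveolar macrophages depend, had 8 and 7 UMIs. Several defining markers were not seen: Siglecf, Ear6, Ear10 and Cidec had 0 UMIs in the macrophages of both tumors, and Ear1 had 13 and 0. For the Ear genes, reads that match more than 1 copy may be missing here too. With each barcode thinned to 500 UMIs, 80.4% and 71.2% of macrophages held a UMI of the list, against 2.51% and 1.16% of the other barcodes. Without thinning the shares were 85.6% and 82.7%.

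Genes of interstitial and tumor-associated macrophages were present beside them. Of 8 and 9 counted genes, 5 and 7 were called higher in macrophages, against 10.7% and 15.2% of all counted genes. Apoe, a lipid carrier and the most abundant gene of the list, stood at 15119.5 against 45.7 CPM in tumor 1 and 6356 against 12.9 CPM in tumor 2. Ms4a7, a membrane protein of tissue macrophages, stood at 714 and 871 CPM, Gpnmb, a glycoprotein of lipid-laden macrophages, at 334 and 415, and Mmp12, the macrophage elastase, at 819 and 433. Cd163 and Lyve1, which mark interstitial macrophages near vessels, had 0 UMIs in macrophages of both tumors, Folr2 had 1 in each and Mrc1 had 8 and 5. Many cells with alveolar genes also held C1q UMIs, given as a description because the C1q genes helped to choose the cells. Of the 99 and 68 macrophages with at least 3 UMIs of the alveolar list, 53 and 60 also held at least 3 of the C1q genes and 84 and 52 at least 3 of the MHC class II list. Of all macrophages, 69 of 139 and 81 of 104 held at least 3 C1q UMIs, and 110 and 80 at least 3 of the MHC class II list. These counts were not thinned, macrophages of tumor 2 were deeper, and the difference between tumors was not tested.

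Genes that went with C1q within the macrophages were described by splitting them at 3 UMIs of the C1q genes, a split made after the values were seen and given without a test. The C1q genes are 3 of the 6 that chose the cells, so a macrophage below the limit was chosen mainly through Lyz2, Tyrobp or Fcer1g, and the values describe the chosen cells only. The Alox15 group was left out. There were 68 macrophages at or above the limit and 70 below it in tumor 1, and 67 and 22 in tumor 2, and those above it were deeper (medians of 1171 and 766.5 UMIs in tumor 1, 1323 and 1164 in tumor 2). In tumor 1 Apoe stood at 23114 CPM above the limit and 3643 below it, and in tumor 2 at 9246 and 1329. Mmp12 stood at 1351 and 49.4 CPM in tumor 1 and at 694 and 31.6 in tumor 2. In tumor 1, however, it was held by 18 of these macrophages, with 96 of its 125 UMIs in 3 of them, and in tumor 2 by 32. Ms4a7 stood at 1140.2 and 98.9 CPM in tumor 1, and in tumor 2 it had 145 UMIs above the limit and 0 below it. Apoc4, Gpnmb and Trem2 lay on the same side in both tumors, as did the lysosome list (log2 ratios of 1.09 and 1.48). The MHC class II list had log2 ratios of 1.03 in tumor 1 and −0.07 in tumor 2, and the alveolar list 0.01 and 1.61. Over single cells, Spearman's rho between the shares of UMIs from the C1q genes and from the MHC class II list was 0.50 in tumor 1 (138 cells) and 0.37 in tumor 2 (89 cells), and with the alveolar list it was −0.12 and 0.21, where both shares come from the same cells and depths. Among alveolar genes, Ctsk had log2 ratios of 0.73 and 3.56, Fabp4 0.38 and 2.07 and Chil3 −0.12 and 0.39. Cxcl2 lay on the other side, at 587 CPM above the limit and 1566 below it in tumor 1 and 188 and 854 in tumor 2. Some UMIs of monocyte and dendritic cell genes also lay on that side in tumor 2, where the cells above and below the limit held 13 and 65 UMIs of Plac8, 3 and 12 of Ccr2, 3 and 13 of Ly6c2, 0 and 35 of Cd209a, 0 and 33 of Ccl17 and 0 and 8 of Siglech. In tumor 1, Cd209a had 0 and 17 UMIs, S100a9 0 and 40 and Ccr2 3 and 1. Single cells carried most of several of these, as 31 Ccl17, 21 Cd209a and 10 Ly6c2 UMIs in tumor 2 and 35 S100a9 and 12 Cd209a UMIs in tumor 1. The part of these cells in the split was not tested.

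**Figure D3:**
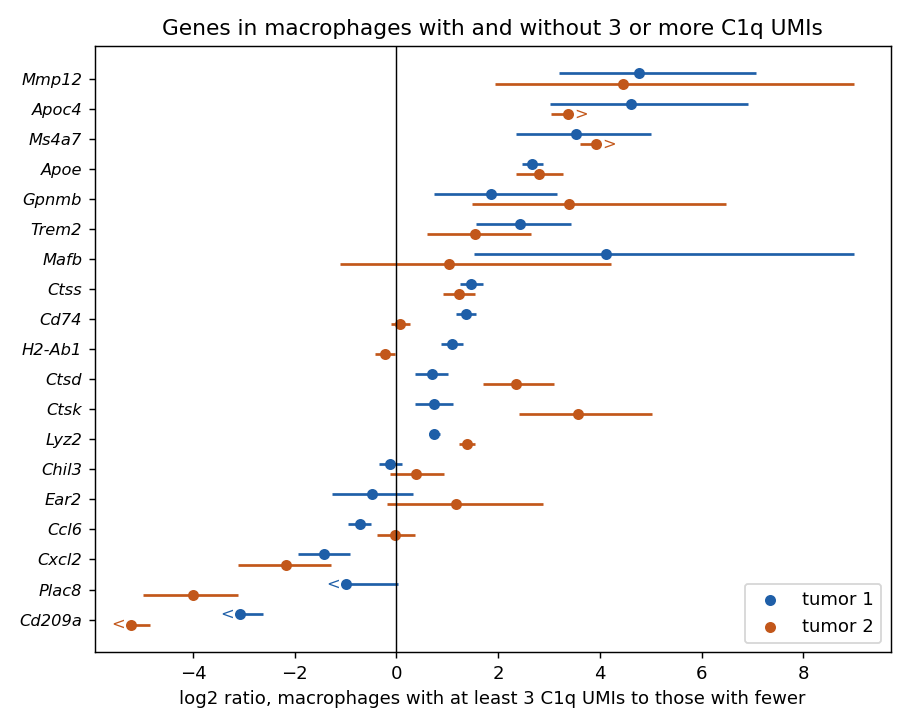
Log2 ratio of macrophages with at least 3 C1q UMIs over those with fewer (horizontal axis) for named genes (vertical axis), 1 point per tumor with the 95% counting interval as a line and arrowheads where a count of 0 leaves a bound. Mmp12, Apoe, Gpnmb and Trem2 lie to the right of 0 in both tumors, Cxcl2 lies to the left in both, and Chil3 lies near 0.

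A small set of macrophages in tumor 2 stood apart from all others. It was found in the genes that differed between tumors and was defined after their values were seen, as the macrophages with UMIs of at least 2 of Alox15, Serpinb2, Icam2 and Saa3. This Alox15 group held 15 of 104 macrophages in tumor 2 (14.4%, 8.30 to 22.7%) and 1 of 139 in tumor 1 (0.719%, 0.0182 to 3.94%). In the other barcodes 0 held 2 or more of the 4 genes. In tumor 2, 10 macrophages held all 4, 5 held 3, 0 held 2, 3 held 1 and 86 held none. In tumor 1, 1 macrophage held all 4, 10 held 1 and 128 held none. Alox15 encodes the lipoxygenase that oxidizes membrane lipids, Serpinb2 an inhibitor of plasminogen activators, Icam2 an adhesion molecule and Saa3 an acute-phase protein. In the 15 cells of tumor 2, Saa3 ran from 7 to 259 UMIs (median 43), Alox15 from 0 to 16 (median 5), Serpinb2 from 0 to 17 (median 3) and Icam2 from 0 to 12 (median 3). The group was deeper than the other macrophages of tumor 2, with a median of 2068 against 1274 UMIs.

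Prg4, which was not used to define the group, was found in every cell of it and in no other macrophage. Prg4 encodes lubricin, a lubricating glycoprotein of serous and joint surfaces. The 15 cells of tumor 2 held 1 to 21 Prg4 UMIs (median 7, 110 in all), the cell of tumor 1 held 23, and the other 89 and 138 macrophages held 0. Against a floor of 3 UMIs, Prg4 was at least 143 times higher in the group in tumor 2. Slpi, an inhibitor of leukocyte proteases, stood at 18733 CPM in the group and 257 in the other macrophages of tumor 2, and had 4 to 107 UMIs in each of the 15 cells. Cd5l, a secreted scavenger protein of tissue macrophages, stood at 1909 and 15.1 CPM, Lrg1, a secreted glycoprotein, at 2290.3 and 7.55, and Pf4, a chemokine known from platelets and macrophages, at 3054 and 68.0. Fn1, fibronectin, stood at 4551 and 234 CPM, Cfp, the complement activator properdin, at 3024 and 249, and Adgre1 (F4/80) at 734 and 113. Marco, a scavenger receptor, stood at 2143 and 60.4 CPM but came from 6 of the 15 cells. Alox15, Serpinb2, Icam2, Saa3 and Prg4 are known together from resident macrophages of the peritoneal and pleural cavities. Gata6, the transcription factor known for that program, had 0 UMIs in the macrophages of both tumors.

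The Alox15 group held little MHC class II. The MHC class II list stood at 734 CPM in the group and 30552 in the other macrophages of tumor 2, a log2 ratio of −5.38. The 15 cells held 0 to 9 UMIs of the list (median 1) although they were deeper, and the others had a median of 28 and up to 226. Cd74 had 7 UMIs in the group and 1440 in the others, and H2-Eb1 had 0 and 255. Several genes of the alveolar and of the C1q-linked sets were at or near 0 there, and others were not. Ctsk had 0 UMIs in the group against 232 in the others, Ms4a7 0 against 145, Ear2 0 against 41, Clec4n 0 against 82 and Trem2 1 against 103. Apoe stood at 2466 and 7357 CPM, Fabp4 at 352 and 544 CPM (log2 ratio −0.63, −1.64 to 0.27), and the alveolar list as a whole, at 3553 and 5906 CPM (log2 ratio −0.73). Marco is a member of that list, and without it the list stood at 1409 and 5846 CPM (log2 ratio −2.05). Of the genes that chose the cells, Lyz2 stood at 24459 and 26345 CPM and the C1q genes at 8251 and 12772 CPM (log2 ratio −0.63). The macrophage of tumor 1 shared a part of this pattern. It held 27 C1q UMIs, 43 of Lyz2, 56 of Saa3, 29 of Slpi and 0 of the MHC class II list, in 1712 UMIs. It also held 0 UMIs of Cd5l, Marco, Itga6 and Timd4, which 14, 6, 8 and 8 of the 15 cells of tumor 2 held, and 1 of Trem2, a level of 584 CPM against 715 in the other macrophages of tumor 1.

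**Figure D4:**
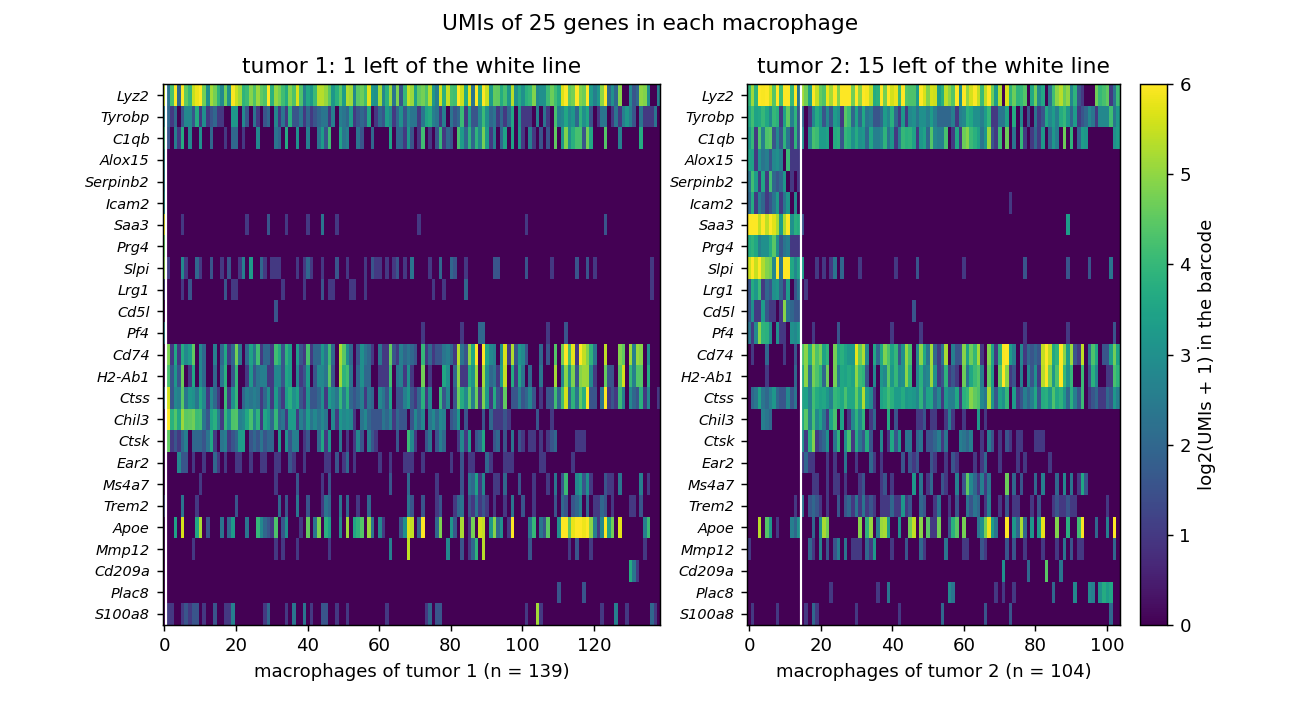
UMIs of 25 genes (rows) in each macrophage (columns), as log2(UMIs + 1) by color, with the Alox15 group left of the white line and the others to its right in falling order of the alveolar share of their UMIs. Saa3 and Prg4 are filled in all 15 cells of the group in tumor 2 and in its 1 cell in tumor 1, Alox15, Serpinb2 and Icam2 in most of them, and Cd74 and H2-Ab1 are nearly empty in the same cells.

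Few genes passed 4-fold between the macrophages of the tumors. Of 1512 genes counted, 11 (0.728%) were at least 4-fold higher in macrophages of tumor 1 and 16 (1.06%) in those of tumor 2, and the median log2 ratio of tumor 1 over tumor 2 was 0.03. Which tumor had more such genes turned with a limit of 50 CPM and without the Alox15 group. The sum of the general macrophage list differed by 0.00 on the log2 scale (−0.07 to 0.07), that of the MHC class II list by 0.06 and that of the chemokines by 0.05. Without the Alox15 group these were −0.01, −0.24 and 0.43. Other lists differed more: the log2 ratio of the sums was 0.62 for the alveolar list, 0.76 for the interstitial and tumor-associated list, 2.44 for the neutrophil list, −0.48 for the monocyte list, −0.81 for the interferon response list and −0.95 for the complement list, each with a counting interval that left out 0. The first 2 sums rested largely on 1 gene each. Chil3 gave 689 of 1272 alveolar UMIs in tumor 1 and 209 of 903 in tumor 2. Apoe gave 2309 of 3186 and 1058 of 2051 UMIs of the interstitial and tumor-associated list. The median log2 ratios over the genes of these 2 lists were 0.38 and 0.19. Without the Alox15 group the monocyte list turned to 0.14 (−0.12 to 0.40) and the complement list fell to 0.04 (−0.32 to 0.41). The interferon response list then stood at −0.58 (−0.79 to −0.37). The list of inflammatory cytokines and NF-kB targets moved from 0.05 to 0.48 (0.19 to 0.79). Of the 144 neutrophil UMIs in tumor 1, 74 lay in 1 macrophage, and without it and the Ccl17 cell described below the log2 ratio was 1.39. TMM factors shifted every log2 ratio between the tumors by −0.12. Of the 16 genes higher in tumor 2, 11 were no longer called when the Alox15 group was left out of both tumors: Alox15, Cd5l, Cfp, Hgsnat, Icam2, Marco, Pf4, Prg4, Saa3, Serpinb2 and Slpi. For Alox15, Icam2, Saa3 and Serpinb2 this follows from the definition of the group. The group was found through genes that differed between the tumors, so the other lost calls are not independent of that choice either. Hgsnat, a lysosomal enzyme, lost the call only through the limit of 100 CPM, at 19.9 and 143.5 CPM without the group (log2 ratio −2.85). Saa3 stood at 465 CPM in all macrophages of tumor 1 and 7474 in those of tumor 2 (log2 ratio −4.01, −4.37 to −3.66). Slpi stood at 753 and 4037 CPM (log2 ratio −2.42), which became 1.15 without the group. Plac8, a protein of monocytes, plasmacytoid dendritic cells and other leukocytes, stood at 26.2 and 469 CPM and was higher in tumor 2 with or without the group. Its UMIs lay in 2 macrophages of tumor 1 and 16 of tumor 2.

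Among the genes with higher levels in macrophages of tumor 1 were secreted proteins and a lipid carrier. Wfdc21, a small secreted protein of the WAP family, stood at 923 CPM in tumor 1 and 108 in tumor 2, a log2 ratio of 3.09 (2.38 to 3.89). Of its 18 UMIs in tumor 2, 14 lay in the Alox15 group, and without the group it stood at 920 and 30.2 CPM, a log2 ratio of 4.93 (3.54 to 6.83). Its UMIs lay in 51 of 139 and 8 of 104 macrophages, with at most 7 and 5 in a cell. Chil3 was 3.59 times higher in tumor 1 (log2 1.85, 1.62 to 2.08). With each barcode thinned to 500 UMIs, 57.1% of macrophages of tumor 1 (47.4 to 66.5%) and 22.1% of tumor 2 (14.6 to 31.3%) held a Chil3 UMI, against 0.0793% and 0.0270% of the other barcodes. Without thinning the shares were 62.6% and 32.7%. Apoe was 2.38 times higher in tumor 1 (log2 1.25, 1.14 to 1.36), with UMIs in 77 of 139 and 51 of 104 macrophages. In tumor 1, 3 macrophages held 781 of its 2309 UMIs, and in tumor 2, 3 held 236 of 1058. Chil3 and Apoe did not reach the 4-fold call.

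Some differences between tumors lay in a single cell. S100a9, a calcium-binding protein abundant in neutrophils and monocytes, stood at 262 and 30.0 CPM, but 35 of its 40 UMIs in tumor 1 were in 1 macrophage, which also held 35 S100a8 UMIs, 6 of Lyz2, 0 of the C1q genes, 0 of Cd74 and 20 of the tumor gene Calca. S100a8 was spread more widely, in 35 macrophages of tumor 1 and 11 of tumor 2, at 635 and 114 CPM. Of the 23 Fmnl2 UMIs in tumor 1, 20 were in 1 cell. In tumor 2, 31 of the 33 UMIs of Ccl17, a chemokine that draws T cells, were in 1 cell with 63 H2-Ab1 UMIs, 7 of Cd209a, 2 of C1qc and 0 of Lyz2. Leaving out the S100a9 cell of tumor 1 and the Ccl17 cell of tumor 2 changed the number of genes higher in tumor 1 from 11 to 7. The log2 ratios of the genes that lost the call became 0.12 for S100a9, 1.83 for S100a8, 1.63 for Cxcl13 and 2.93 for Krt7, a keratin that stayed past 4-fold and fell below the limit of 100 CPM.

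Of 6 counted interferon response genes, 0 were called either way between the macrophages of the tumors, where 0.728% and 1.06% of all counted genes were called, so that the count says nothing about the list. Ifitm3, which blocks the entry of viruses, stood at 399 CPM in macrophages of tumor 1 and 1339.7 in those of tumor 2 (log2 ratio −1.75), and at 216 and 33.4 CPM in the other barcodes. Bst2, which tethers viruses to the membrane, stood at 138 and 348 CPM (log2 ratio −1.34) in macrophages. Ifi27l2a went the other way, at 838 and 451 CPM. Without the Alox15 group the interferon response list summed to 2232 and 3331 CPM in macrophages of tumors 1 and 2.

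**Figure D5:**
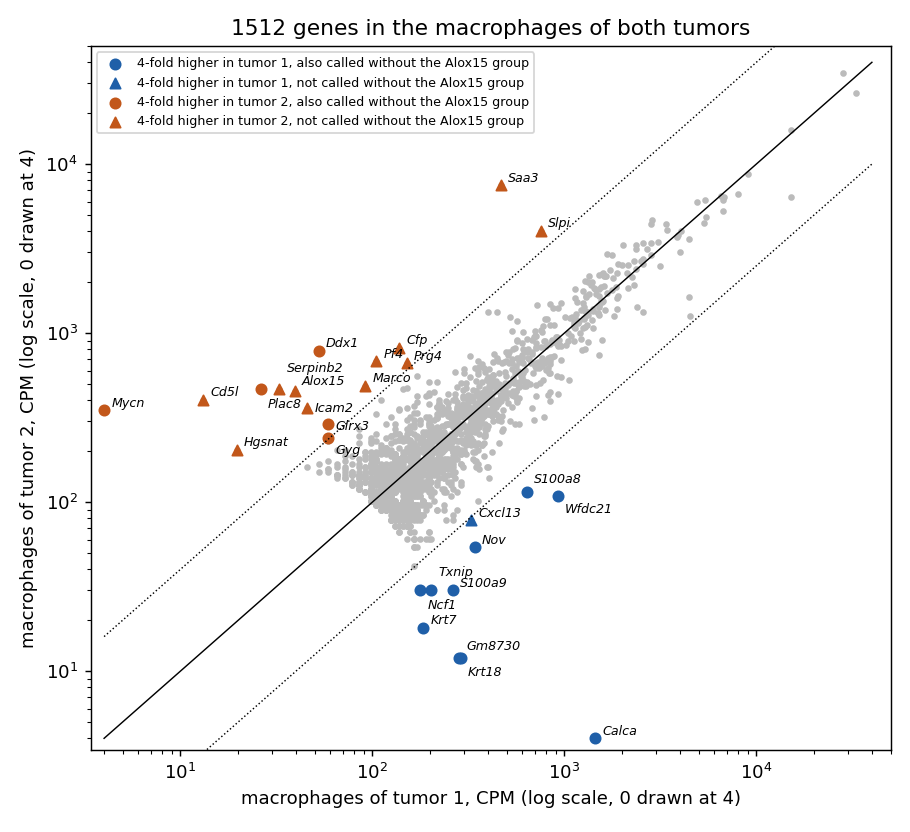
Level of 1512 genes in macrophages of tumor 1 (horizontal axis) and tumor 2 (vertical axis), in CPM on log scales with 0 drawn at 4, with lines of equality and of 4-fold difference. Genes past 4-fold are named, triangles marking those no longer called without the Alox15 group (among them Hgsnat and Cxcl13, which stayed past 4-fold but fell below a mean of 100 CPM); Saa3 lies at 465 and 7474, and most genes lie along the line of equality.

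RNA of neuroendocrine tumor genes was low in the macrophages and differed between the tumors in the same direction as in the other barcodes. The neuroendocrine list, led by Calca (calcitonin and CGRP) in tumor 1 and by the oncogene Mycn in tumor 2, held 2947 CPM in macrophages of tumor 1, which was 9.57% of its level in the other barcodes, and 769 CPM or 11.2% in tumor 2. In tumor 1, 16 of 16 counted genes of the list were called lower, and in tumor 2, 8 of 9, against 10.6% and 9.49% of all counted genes. These genes were counted mostly through their level in the other barcodes, which favors the call. Others of the list that were not counted in tumor 1 would not have been called, among them Sox11 at 29.2% and Syp, of a synaptic vesicle protein, at 55.0% of the level outside. Calca had 221 UMIs in macrophages of tumor 1 and 0 in those of tumor 2, and Mycn had 0 and 58. The other barcodes had Calca at 16272 and 83.7 CPM and Mycn at 12.1 and 2843 CPM. Calca and Mycn were among those that differed between the macrophages of the tumors, as were Krt18 (288 and 12.0 CPM) and Ddx1 (52.4 and 787 CPM), a neighbor of Mycn. The share of the outside level varied by gene among those of at least 200 CPM in the other barcodes, with the lowest at 2.44% (Chgb) in tumor 1, and a range in tumor 2 from 4.24% for Cpe to 30.0% for Sox11. Most macrophages, 77 of 139 and 69 of 104, held 0 UMIs of the list, and 3 and 2 held a share above the median of the other barcodes (2.94% and 0.631%). The part of free RNA and of droplets with 2 cells in these values was not tested.

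Markers of other cell types were scarce, with a few exceptions. The T and NK cell list had 0 UMIs in macrophages of tumor 1 and 40 UMIs (240 CPM) in 7 macrophages of tumor 2, 19 of them in 1 cell. The leading gene was Cd8b1 with 9, and Cd4 and Lck were at 0. The neutrophil list held 943 and 174 CPM, while the defining genes Ly6g, Camp and Ngp were at 0 in both. S100a8 and S100a9 gave 97 and 40 of its 144 UMIs in tumor 1, and 19 and 5 of its 29 in tumor 2. The B cell list had 1 and 3 UMIs, the fibroblast list 0 in both and the mast cell list 0 and 2. Of alveolar type 2 genes, Sftpc, Sftpb, Sftpa1, Sftpd, Lamp3 and Slc34a2 were at 0, and Napsa, an aspartic protease, had 11 and 20 UMIs. Among dendritic cell genes, Cd209a had 17 and 35 UMIs in 3 and 4 macrophages, Flt3, Zbtb46, Xcr1 and Itgae were at 0, and Cst3, which macrophages also make, led with 2842 and 3424 CPM. Among monocyte genes, Ccr2 had 4 and 16 UMIs and Ly6c2 5 and 16. Scgb1a1 was held by 21 and 2 macrophages, at 170.2 and 12.0 CPM, against 16644 and 1223 in the other barcodes. What part these cells or transcripts had in the values above was not tested.

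The summed level of cell division genes was lower in macrophages than in the other barcodes. The proliferation list stood at 1172 and 1171 CPM in macrophages, and at 4002 and 5089 CPM in the others. Of the counted genes, 1 of 4 was called lower in tumor 1 and 5 of 8 in tumor 2, against 10.6% and 9.49% of all counted genes, and 1 gene of 4 says little. The genes of this list passed the limit of 100 CPM largely through their level in the other barcodes, which favors the call. Stmn1, which releases microtubule ends, stood at 576 against 2793 CPM and 595 against 2861 CPM. Mki67 was not lower in tumor 1, with 13 UMIs in 7 macrophages (85.1 CPM) against 73.8 CPM in the others, and 38 of the 179 UMIs of the list lay in 1 macrophage. In tumor 2 it had 2 UMIs.

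The deleted genes were too sparse to say whether macrophages carried them intact. Rb1 had 6 and 5 UMIs in macrophages, Trp53 4 and 6, and Rbl2 0 and 0. A UMI from the remaining exons of a deleted gene could also be counted. Of the regulators linked by the study to non-neuroendocrine states, Rest had 4 and 4 UMIs in macrophages, Mitf 1 and 2, Zfp217 0 and 2, Six5 0 and 0 and Tead4 0 and 0. Of sex-linked genes, Ddx3y had 2 and 9 UMIs, Eif2s3y 7 and 6, and Xist 0 in both.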

How the data were processed

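Tumors from 2 mice were profiled by droplet single-cell RNA-seq (10x Chromium), 1 library each. Per the labels' processing notes the authors used Cell Ranger and Seurat with the mm10 build, and their versions are not given in the sources used here. The deposited values are UMI counts per gene and barcode, not normalized, for 27998 gene identifiers, of which 27722 were matched to GENCODE M21 (GRCm38). The members and gene lists were chosen with earlier results of these data known.

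Counts were summed over macrophages and over all other barcodes with more than 200 genes, and given as CPM (counts per 1000000). The 6 choosing genes and Scgb1a1 were left out of counts of called genes, which needed a mean of at least 100 CPM and a 4-fold difference. With 1 library per tumor there were no replicates, no tests and no p-values. Intervals are 95% and exact (Poisson for levels, Clopper-Pearson for shares, conditional binomial for ratios), cover counting error only, and a count of 0 was set to a floor of 3 UMIs in ratios. For shares of cells, barcodes were thinned to 500 UMIs and shallower ones left out.

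Genes were named from the lists, or as the 15 genes with the largest lower bound of the ratio over other barcodes in both tumors, the 10 each way between tumors among genes at least 2-fold higher in macrophages, the 5 each way without that limit, and deleted and sex-linked genes. Genes singled out beyond these (Prg4, Fmnl2, Lrg1, Gata6) were chosen after their values were seen. No doublet caller was run: an alternative left out 3 and 2 macrophages whose neuroendocrine share was above the median of other barcodes, leaving 136 and 102. Other alternatives changed the limits on genes, rule UMIs, mean CPM and thinning, or used TMM factors (edgeR 4.0.16) or scaling without mitochondria-encoded and ribosomal protein genes. Leaving out the Alox15 group, single cells or Marco was added after seeing the data. Scripts ran in Python 3.11.15 (numpy 2.4.6, scipy 1.17.1, pandas 2.3.3, matplotlib 3.10.9) and R 4.3.3, and the ratio function was tested on simulated data.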

Additional observations from a re-analysis of the deposited data

Results flagged for a closer look

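In 2 genes the macrophages lay on opposite sides of the other barcodes in the 2 tumors, with intervals that left out 0 in each tumor. The difference between tumors was not tested. Cd9, a tetraspanin of the interstitial and tumor-associated list, had a log2 ratio of macrophages over other barcodes of −1.59 in tumor 1 and 0.70 in tumor 2. Its level in macrophages was 2253 and 2157 CPM, and in the other barcodes 6786 and 1331 CPM. Hp, encoding haptoglobin, which binds free hemoglobin and which is on both the monocyte and the club cell list, had log2 ratios of −0.72 and 3.43. Its level in macrophages was 216 and 312 CPM, and in the other barcodes 356 and 29.0 CPM. In macrophages of tumor 2, Hp gave 52 of the 56 UMIs of the club cell list. That list fell from 336 to 234 CPM without the Alox15 group, so part of the Hp UMIs lay in that group.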

How the results depend on the processing

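No paired analysis was possible because each tumor gave 1 library. Of 42 other settings for the counts of called genes, 29 stayed within 1.5 times the reported count. With a mean of at least 50 CPM the counts became 336 higher and 427 lower in tumor 1, 416 and 325 in tumor 2, and 48 and 40 between tumors (higher in tumor 1 and in tumor 2). With at least 200 CPM they became 103 and 80 in tumor 1, 148 and 62 in tumor 2, and 4 higher in tumor 1. Scaling without mitochondria-encoded and ribosomal protein genes gave 264 lower in tumor 2. Of the genes that were higher, the share among all called ones moved from 50.1% to 60.2% in tumor 1 with TMM factors and from 61.6% to 50.3% in tumor 2 with that scaling. TMM factors shifted all log2 ratios over other barcodes by 0.23 in tumor 1 and −0.04 in tumor 2, and that scaling shifted them by −0.02 and −0.19. Leaving out macrophages high in neuroendocrine genes gave 7 genes higher in tumor 1 than in tumor 2. Leaving out the S100a9 and Ccl17 cells also gave 7, all among the reported 11. Leaving out the Alox15 group gave 9 genes higher in tumor 2, of which 5 were among the reported 16. Of the reported 11 genes higher in tumor 1, 10 kept the call without the group, and Cxcl13 lost it through the limit of 100 CPM. Ahnak, Bst1, Gda and Mrpl27 were newly called higher in tumor 1, so that tumor 1 then had more such genes than tumor 2.

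The neuroendocrine level in macrophages of tumor 1, 9.57% of that outside, was 10.96% with more than 500 detected genes, 8.44% with at least 10 rule UMIs and 6.81% without the cells high in these genes, which in tumor 2 lowered 11.2% to 7.70%. The macrophage share of tumor 1 was 2.44% with more than 500 genes. Thinned to 1000 UMIs, 89.6% of macrophages of tumor 1 held an MHC class II UMI and 80.5% of tumor 2 an alveolar one. Without thinning the tumor 2 shares were 92.3% (MHC class II), 82.7% (alveolar) and 32.7% (Chil3). Of 150 alternatives for the medians of 30 lists between tumors, 22 were labeled as moved. The limit was the mean distance from the log2 ratio of the list's sums to the ends of its counting interval. The largest move of a median was 2.48 on the log2 scale. Except for the alternatives that change the number of genes or cells by construction, the cause was not tested. Depth limits what single cells show: a macrophage held a median of 967 or 1379.5 UMIs, so a gene of low level can be missed in it.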

Other observations

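Single macrophages held genes of other lineages beside the choosing genes, and these cells were picked after their values were seen. In tumor 2, Siglech, a receptor of plasmacytoid dendritic cells, had 8 UMIs in 2 macrophages. The cell with 6 of them held 0 UMIs of Lyz2 and the 3 C1q genes, 6 of Tyrobp, 6 of Plac8, 5 of Ly6d and 2 of Cox6a2, so that it met the rule while these genes do not mark it as a macrophage. Timd4, a receptor for dying cells known from resident macrophages, had 4 UMIs in macrophages of tumor 1 and 21 in those of tumor 2, and 0 in the other barcodes of both tumors. Of its UMIs in tumor 2, 16 lay in the Alox15 group and 5 in the other macrophages. C4b, a complement component, had 23 and 35 UMIs in macrophages and 0 elsewhere, and C5ar1, the receptor of the C5a fragment, had 19 and 34, with 1 and 0 elsewhere. Of the C4b UMIs, 6 in tumor 1 and 32 in tumor 2 lay in the Alox15 group. The other macrophages held 17 and 3, at 113 and 22.7 CPM, so that the order of the tumors turned without the group. Cd55 and Serping1, which restrain complement, had 0 UMIs in macrophages of both tumors, and Cfp, which promotes it, stood at 138 and 817 CPM. Of the Cfp UMIs of tumor 2, 103 lay in the Alox15 group, and without the group Cfp stood at 126 and 249 CPM. Vsig4, a complement receptor of resident macrophages, was held by 3 of the 15 cells of the Alox15 group in tumor 2 and by 0 other macrophages of either tumor.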
